A study of Mus musculus with 8 samples.

Results

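The genes described here are 10 eicosanoid receptors and enzymes of the mouse, namely the receptors *Ltb4r1*, *Ltb4r2*, *Cysltr1*, *Ptger2*, *Ptger4* and *Ptgir* and the synthesis genes *Alox5ap*, *Lta4h*, *Hpgds* and *Ptgs2*. They were taken by symbol from the 23284 genes of the expression tables, and each had a single row in each table. No measured value entered the rule, but the genes were chosen with earlier results of these data known. The RNA came from DO11.10 Tg mice, in which T cells bear a transgenic TCR for a peptide of ovalbumin (OVA), and was sequenced for 4 kinds of CD4 T cell, naïve and effector Th1, Th2 or Th17, in a study that looked for surface molecules of effector cells. Each group had 2 libraries. Naïve cells were CD4 T cells of the spleen, CD44low and CD62Lhi, isolated by cell sorting. For the effector groups, such cells were cultured for 6 days with OVA peptide and irradiated splenocytes that had been depleted of T cells. Under Th1 conditions, IL-12 (100 U/ml), an IL-2 culture supernatant (30 U/ml) and an antibody to IL-4 (1 μg/ml) were present. Under Th2 conditions, IL-4 (100 U/ml), the same amount of IL-2 and an antibody to IFNγ (10 μg/ml) were present. Under Th17 conditions, IL-6, IL-1β and IL-23 (10 ng/ml each) and antibodies to IL-4 and IFNγ (10 μg/ml each) were present, and no IL-2 is listed. Per the study's methods the mice were 6 to 12 weeks old, and how many stand behind a library is not given in the sources used here. Nothing there says that the replicates came from separate animals or cultures, so the p-values below measure only the spread between these libraries, which may be technical.

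Eicosanoids are lipid mediators made from arachidonic acid that phospholipases free from membranes. The lipoxygenase branch, with 5-lipoxygenase and its partner protein FLAP (*Alox5ap*), makes leukotriene A4, which *Lta4h* turns into leukotriene B4 and other enzymes into the cysteinyl leukotrienes. The cyclooxygenase branch (*Ptgs1*, *Ptgs2*) makes prostaglandin H2, from which terminal synthases make PGE2, PGD2 and prostacyclin. The mediators act on G protein-coupled receptors. In T cells the leukotriene B4 receptor is known for guiding migration into inflamed tissue. The PGE2 receptors EP2 (*Ptger2*) and EP4 (*Ptger4*) are known for raising cyclic AMP.

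RefSeq (GRCm38.p6) gave a promoter window for 7 of the 10 genes, and for *Ltb4r2*, *Cysltr1* and *Alox5ap* none was at hand. The 250 bases before the start of 4 receptor genes are shown because their RNA levels follow 4 different orders over the groups. The window of *Ltb4r1* is chr14:55765712-55765961 (plus strand), that of *Ptger2* chr14:44987861-44988110 (plus strand), that of *Ptger4* chr15:5244188-5244437 (minus strand) and that of *Ptgir* chr7:16906240-16906489 (plus strand). No exon of the GENCODE annotation lies in any of these 4 windows. Capitals mark matches, on either strand, to the RUNX letters TGTGGT, the NFAT letters GGAAAA and the Sp1 letters GGGCGG.
Ltb4r1: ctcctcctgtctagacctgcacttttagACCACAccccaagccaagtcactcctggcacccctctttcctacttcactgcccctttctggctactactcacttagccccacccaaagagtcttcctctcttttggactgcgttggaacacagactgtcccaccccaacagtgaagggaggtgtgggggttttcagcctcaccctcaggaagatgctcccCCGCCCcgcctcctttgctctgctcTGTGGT
Ptger2: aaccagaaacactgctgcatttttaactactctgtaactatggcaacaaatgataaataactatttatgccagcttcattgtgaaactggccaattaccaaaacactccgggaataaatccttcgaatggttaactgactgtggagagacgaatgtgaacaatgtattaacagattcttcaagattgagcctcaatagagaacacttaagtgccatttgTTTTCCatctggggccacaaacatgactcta
Ptger4: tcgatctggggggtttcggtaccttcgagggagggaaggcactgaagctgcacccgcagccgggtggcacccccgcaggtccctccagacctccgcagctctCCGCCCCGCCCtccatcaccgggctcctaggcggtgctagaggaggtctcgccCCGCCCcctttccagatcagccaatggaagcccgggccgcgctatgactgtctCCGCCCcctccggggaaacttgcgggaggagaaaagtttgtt
Ptgir: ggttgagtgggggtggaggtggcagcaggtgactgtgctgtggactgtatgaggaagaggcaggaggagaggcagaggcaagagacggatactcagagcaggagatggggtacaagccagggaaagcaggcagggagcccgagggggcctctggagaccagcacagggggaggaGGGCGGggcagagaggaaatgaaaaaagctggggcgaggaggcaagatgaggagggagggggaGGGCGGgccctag
Over windows of 300 bases (250 before and 50 after the start), the Sp1 letters were present in 4 of the 7 genes (*Ltb4r1*, *Ptger4*, *Ptgir*, *Ptgs2*) and in 35.7% of all 32851 windows. The RUNX letters were present in 3 (*Ltb4r1*, *Hpgds*, *Ptgs2*) and in 16.8% of all windows. The NFAT letters were present in 3 (*Ptger2*, *Lta4h*, *Ptgs2*) and in 23.4% of all windows. The ETS letters GGAAGT were present in 2 (*Ltb4r1*, just after its start, and *Hpgds*) and in 23.8% of all windows. *Ltb4r1* was the one window with RUNX, ETS and Sp1 letters together, and 1 of its RUNX matches ended at the base before the start. None of the 7 windows held the letters of the other motifs searched. These were the AP-1 letters TGANTCA, in 7.81% of all windows, and the CRE letters TGACGTCA, in 1.79%. For STAT factors they were TTCNNNGAA, in 8.3% of all windows, and for T-box factors GGTGTGA, in 3.98%. For GATA factors they were AGATAA, in 11.2% of all windows, and for ROR factors AGGTCA, in 16.3%. The shorter CRE letters TGACG, in 20.8% of all windows, were in that of *Ptgs2* alone. Such matches describe the letters and are not evidence of binding.

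Expression is given as FPKM, which scales the fragments of a gene to its exon length and to all mapped fragments of the library, so levels of different genes are comparable per length. The numbers of fragments implied by the confidence intervals of the tables summed to 14463466 to 21058286 per library, with the naïve libraries the shallowest, and replicates of a group correlated at r = 0.953 to 0.960 across genes. The labelled identities were borne by their markers: *Ifng* stood at 614 FPKM or more in Th1, *Il4* at 97.6 or more in Th2 and *Il17a* at 335 or more in Th17, and the summed level of 6 T cell markers was 1252 to 2094 FPKM in every library. In each effector group the library of replicate 1 stood apart by the granulocyte precursor genes *Mpo* and *Elane*: the 7 neutrophil markers that were measured summed to 6.54 to 7.67 FPKM there and to 0.0818 to 0.646 in replicate 2. In the naïve libraries *Cd8b1* stood at 52.8 and 90.5 FPKM beside 1.77 and 2.94 for *Cd8a*. In bulk RNA, fewer cells of a type and less RNA per cell cannot be told apart.

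In naïve cells the group was dominated by 2 genes, *Lta4h* at 39.7 ± 2.38 FPKM (mean ± SD, n = 2) and *Ptger4* at 14.8 ± 0.931, while *Ltb4r1*, *Ltb4r2*, *Cysltr1* and *Ptgs2* were at 0.148 FPKM or less in both libraries. By mean FPKM, *Ltb4r1* was the highest of the 10 in Th1 and Th17 cells, and *Cysltr1* in Th2 cells. In Th2 replicate 1 *Cysltr1* and *Ltb4r1* were nearly level. *Ltb4r1*, *Ltb4r2*, *Cysltr1*, *Ptger2*, *Ptger4* and *Ptgs2* were higher in each of the 6 effector libraries than in both naïve libraries. *Hpgds* was lower in each of them. The share of all genes separated in this way was not worked out, so their number is not a result about the set. By the test described below, 24.8% of all tested genes were called higher in all 3 effector groups and 23.8% lower.

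**Figure D1:**
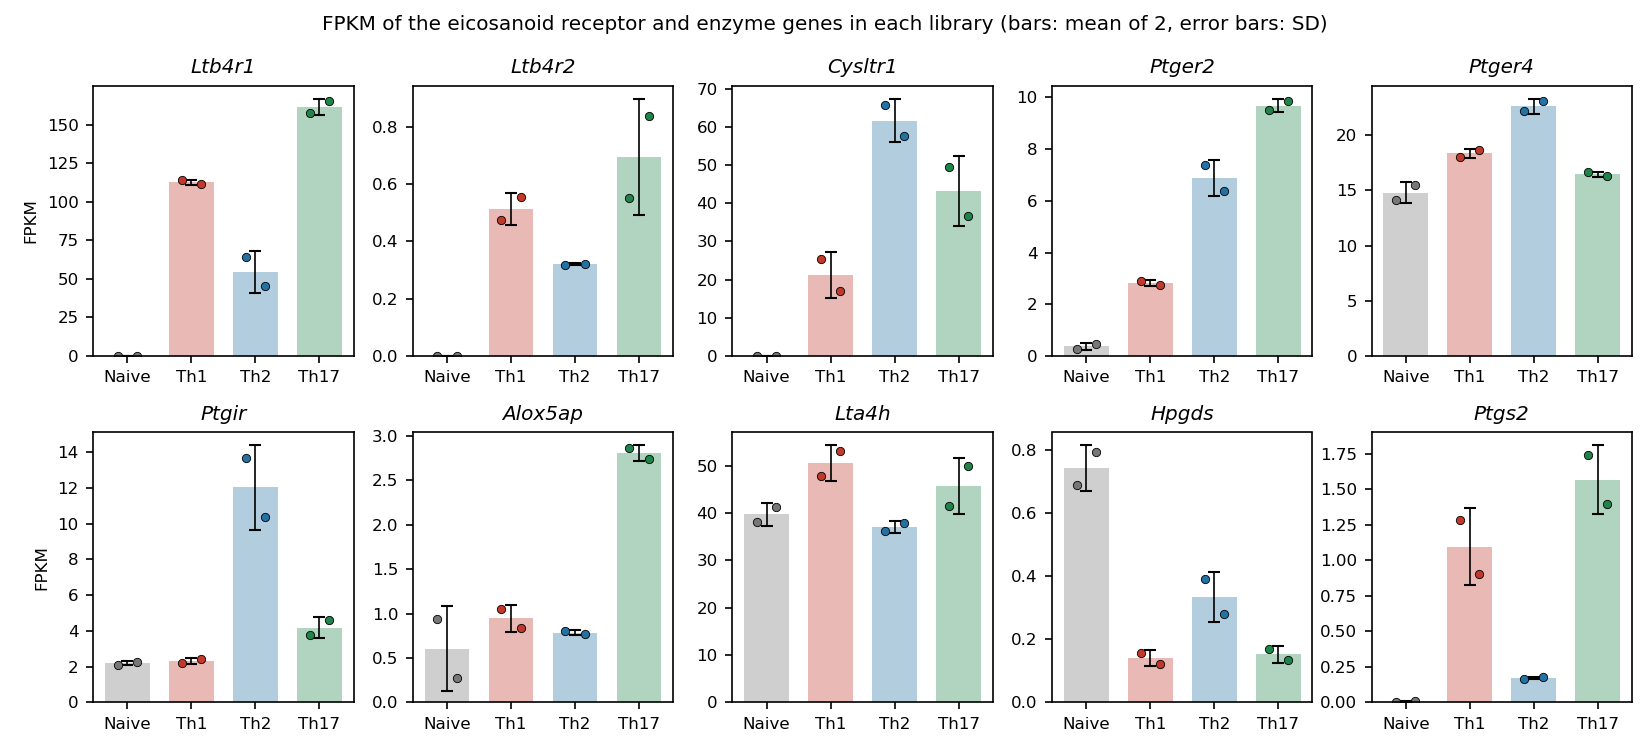
FPKM (y axis, a separate linear scale for each gene, from 0) of the 10 genes in the 8 libraries, with points for libraries, bars for the mean of 2 and error bars for the SD. *Ltb4r1* stood at 158 and 165 FPKM in Th17 and at 45.0 and 64.2 in Th2, *Cysltr1* and *Ptgir* were highest in Th2, *Hpgds* was highest in naïve cells, and *Lta4h* and *Ptger4* stayed within narrow ranges.

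7 of the 10 genes had a mean of at least 1 FPKM over the 8 libraries and were tested, among 11198 such genes, with limma on log2(FPKM + 1), with Benjamini-Hochberg adjustment over all of them and a threshold of adjusted p under 0.05. *Ltb4r2*, *Hpgds* and *Ptgs2* did not pass this filter. Differences below are on the log2(FPKM + 1) scale, which understates changes of genes near 0. Against naïve cells, 5 of the 7 genes rose in Th1, where 33.8% of all tested genes were called higher and 67.3% in either direction. In Th2 5 rose as well, beside 31.8% of all genes called higher and 70.5% in either direction, and in Th17 5, beside 37.5% and 67.3%. None of the 7 was called lower in these comparisons. Of the genes left out by the filter, *Hpgds* was lower and *Ltb4r2* and *Ptgs2* were higher in every effector library. The filter averages 6 effector and 2 naïve libraries, so it favours genes that are high in effector cells. A count of 5 of 7 is close to the share of all genes called in either direction, so the number of calls is not in itself a result about these genes. 3 genes, *Ltb4r1*, *Cysltr1* and *Ptger2*, rose in all 3 effector groups, as did 24.8% of all tested genes. The 3 comparisons share the naïve libraries. Th1, Th2 and Th17 cells differed from naïve by a median of 0.34, 2.02 and 1.28 over the 7 genes, beside -0.01, -0.11 and 0.08 over all tested genes. With 7 genes each median is the value of 1 gene, *Lta4h* in Th1, *Ptgir* in Th2 and *Alox5ap* in Th17. *Alox5ap*, also among the 5 that rose in Th17, passed the filter only through its Th17 level. The medians are therefore not results about the set.

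Among the leukotriene receptors, *Ltb4r1* (chr14:55765962-55768492), the high-affinity receptor for leukotriene B4, went from near 0 to one of the more abundant RNAs. It stood at 0.0735 and 0.148 FPKM in naïve cells, 114 and 112 in Th1 cells, 64.2 and 45.0 in Th2 cells and 158 and 165 in Th17 cells. All effector libraries lay far above both naïve libraries, and the 3 effector groups did not overlap, in the order Th17, Th1, Th2. The difference from naïve was 6.68 (SE 0.16, adjusted p = 2.69e-07) in Th1, 5.63 (SE 0.16, adjusted p = 3.41e-07) in Th2 and 7.19 (SE 0.16, adjusted p = 1.93e-07) in Th17. The 2 naïve libraries held 6 implied fragments of *Ltb4r1* in all, which put the ratio to naïve at 1020.4 in Th1 (95% exact counting interval 469 to 2781), 495 in Th2 (227 to 1349.6) and 1455 in Th17 (668 to 3966). These intervals cover counting error only. *Ltb4r1* is among the receptors that the study picked from these same libraries, so its rise is not independent of that choice. Between effector groups, *Ltb4r1* was 2.06-fold higher in Th1 than in Th2 (difference 1.05, SE 0.16, adjusted p = 0.00221) and 2.95-fold higher in Th17 than in Th2 (1.57, SE 0.16, adjusted p = 0.000529). Th1 and Th17 were not called different (difference -0.51, 95% interval -0.89 to -0.13, adjusted p = 0.0574), but were with quantile normalization (adjusted p = 0.0401), in a fit of these 2 groups alone (adjusted p = 0.0188) and without the Th2 library of replicate 1 (adjusted p = 0.0106) or 2 (adjusted p = 0.0105).

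*Ltb4r2* (chr14:55761428-55763229), the low-affinity receptor, lies on the same strand beside *Ltb4r1*, with 2732 bases between them as the tables place them. It was listed at 0 in both naïve libraries, at 0.474 and 0.554 FPKM in Th1 cells, 0.318 and 0.323 in Th2 cells and 0.553 and 0.838 in Th17 cells. Every effector library held fragments of it, 12 to 25 in each, and Th2 lay below both other effector groups. Against a floor of 3 fragments over both naïve libraries, it was at least 9.65-fold higher in Th1, 6.03-fold in Th2 and 12.7-fold in Th17. With no filter on low values its difference from naïve was called in all 3 groups (0.60 in Th1, adjusted p = 0.0016, 0.40 in Th2, adjusted p = 0.00722, and 0.76 in Th17, adjusted p = 0.000557). In each effector library *Ltb4r2* stood far below its neighbour.

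*Cysltr1* (chrX:106576517-106603462), a receptor for the cysteinyl leukotrienes, had its peak in Th2. It stood at 0 and 0.0172 FPKM in naïve cells, 25.4 and 17.0 in Th1 cells, 65.7 and 57.6 in Th2 cells and 49.5 and 36.6 in Th17 cells. The 3 effector groups did not overlap, in the order Th2, Th17, Th1. The difference from naïve was 4.43 (SE 0.21, adjusted p = 3.32e-06) in Th1, 5.95 (SE 0.21, adjusted p = 7.39e-07) in Th2 and 5.43 (SE 0.21, adjusted p = 1.18e-06) in Th17. A single implied fragment was found over both naïve libraries, so the ratio to naïve is loosely set, at 2481 (445 to 98014) in Th1, 7185 (1289 to 283838) in Th2 and 5127 (919.9 to 202555) in Th17. *Cysltr1* was 2.91-fold higher in Th2 than in Th1 (Th1 minus Th2 -1.52, SE 0.21, adjusted p = 0.00145) and 2.03-fold higher in Th17 than in Th1 (Th1 minus Th17 -1.001, SE 0.21, adjusted p = 0.0143). The latter was lost without the Th1 library of replicate 2 (-0.73, adjusted p = 0.0687) and without the Th17 library of replicate 1 (-0.79, adjusted p = 0.0866). Th17 and Th2 were not called different (-0.52, 95% interval -1.02 to -0.02, adjusted p = 0.0856), but were with median scaling (-0.70, adjusted p = 0.0479).

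The balance of the leukotriene receptors therefore differed between groups within each library. The ratio of *Ltb4r1* to *Cysltr1* FPKM was 4.49 and 6.56 in Th1, 3.18 and 4.51 in Th17 and 0.979 and 0.782 in Th2. The Th2 libraries were the ones in which *Cysltr1* exceeded *Ltb4r1*. In Th2 replicate 1 the 2 genes were nearly level, with overlapping confidence intervals (63.8 to 67.5 FPKM for *Cysltr1* and 61.6 to 66.9 for *Ltb4r1*). The ratio of *Cysltr1* to *Cysltr2*, the second cysteinyl leukotriene receptor, was 0.647 and 0.40 in Th1 cells, 1.85 and 1.54 in Th2 cells and 0.930 and 0.747 in Th17 cells, so that *Cysltr1* exceeded *Cysltr2* in Th2 and not in the other groups. These ratios are descriptions of single libraries without a test.

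Among the prostanoid receptors, *Ptger2* (chr14:44988111-45003820), which encodes the PGE2 receptor EP2, rose in all effector groups and *Ptger4* (chr15:5233404-5243831), which encodes EP4, stayed within a narrow range. *Ptger2* stood at 0.282 and 0.468 FPKM in naïve cells, 2.89 and 2.74 in Th1 cells, 7.38 and 6.39 in Th2 cells and 9.50 and 9.87 in Th17 cells. No 2 groups overlapped. The difference from naïve was 1.47 (SE 0.11, adjusted p = 3.13e-05) in Th1, 2.52 (SE 0.11, adjusted p = 1.95e-06) in Th2 and 2.96 (SE 0.11, adjusted p = 1.08e-06) in Th17, which corresponds to 7.51-fold, 18.4-fold and 25.8-fold higher mean FPKM. Th1 was 2.45-fold below Th2 (-1.05, SE 0.11, adjusted p = 0.000452) and 3.44-fold below Th17 (-1.49, SE 0.11, adjusted p = 0.00016). The smaller difference between Th17 and Th2 (0.44, SE 0.11, adjusted p = 0.0186) was lost without the Th17 library of replicate 1 (adjusted p = 0.06) or 2 (adjusted p = 0.0919), without the Th2 library of replicate 2 (adjusted p = 0.0965), and under both other scalings of the libraries (0.28 with median scaling, adjusted p = 0.086, and 0.26 with quantile normalization, adjusted p = 0.0809). In the annotation 246 exon bases of *Ptger2* are shared with *Gm17173* and 144 with *Gm49364* on the other strand, so reads of these stretches could belong to those genes.

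*Ptger4* stood at 14.2 and 15.5 FPKM in naïve cells, 18.1 and 18.7 in Th1 cells, 22.2 and 23.1 in Th2 cells and 16.6 and 16.3 in Th17 cells. The groups did not overlap, and all libraries lay between 14.2 and 23.1 FPKM. Th2 was highest, with a difference from naïve of 0.58 (SE 0.08, adjusted p = 0.000723), or 1.53-fold, and from Th17 of -0.44 for Th17 minus Th2 (SE 0.08, adjusted p = 0.00701). The rise in Th1 (0.29, SE 0.08, adjusted p = 0.0186) was lost without naïve replicate 1 (adjusted p = 0.0892) and without either Th1 library (adjusted p = 0.0594 and 0.0908). The difference of Th1 from Th2 (-0.29, SE 0.08, adjusted p = 0.0313) was lost without any 1 of the effector libraries (adjusted p = 0.054 to 0.133). Th17 was not called different from naïve (0.15, 95% interval -0.06 to 0.35, adjusted p = 0.168). The FPKM ratio of *Ptger4* to *Ptger2* was 50.3 and 33.1 in naïve cells, 6.25 and 6.82 in Th1 cells, 3.002 and 3.62 in Th2 cells and 1.75 and 1.65 in Th17 cells. This ratio, a description without a test, was largest in naïve cells and nearest to balance in Th17 cells. Of the 50-base words of *Ptger4* transcripts, 14.4% also occur in transcripts of *Ttc33* or *Gm15937*, to which reads could have been given.

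*Ptgir* (chr7:16906490-16910905), the prostacyclin receptor, was highest in Th2, as were *Cysltr1* and *Ptger4*. It stood at 2.12 and 2.27 FPKM in naïve cells, 2.20 and 2.45 in Th1 cells, 13.7 and 10.4 in Th2 cells and 3.77 and 4.61 in Th17 cells. Th2 lay above every other group, Th17 above naïve and Th1, and the naïve and Th1 libraries overlapped. Th2 was 5.48-fold above naïve (2.02, SE 0.15, adjusted p = 2.24e-05), 5.17-fold above Th1 (Th1 minus Th2 -1.96, SE 0.15, adjusted p = 9.3e-05) and 2.87-fold above Th17 (Th17 minus Th2 -1.32, SE 0.15, adjusted p = 0.000773). The rise in Th17 over naïve was 0.70 (SE 0.15, adjusted p = 0.00479) and was not called with quantile normalization (0.23, adjusted p = 0.198). The difference of Th1 from Th17 (-0.64, SE 0.15, adjusted p = 0.0205) was lost without either Th1 library (adjusted p = 0.111 and 0.0732) or Th17 replicate 2 (adjusted p = 0.125). Th1 and naïve were not called different (0.06, 95% interval -0.29 to 0.41, adjusted p = 0.751). Beside the Th2 peak, 6 macrophage and monocyte markers summed to 26.5 and 19.3 FPKM in Th2, with *Fcgr1* at 0 there, and to 8.28 to 15.6 in the other groups, and the part of such cells in the *Ptgir* level was not tested.

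**Figure D2:**
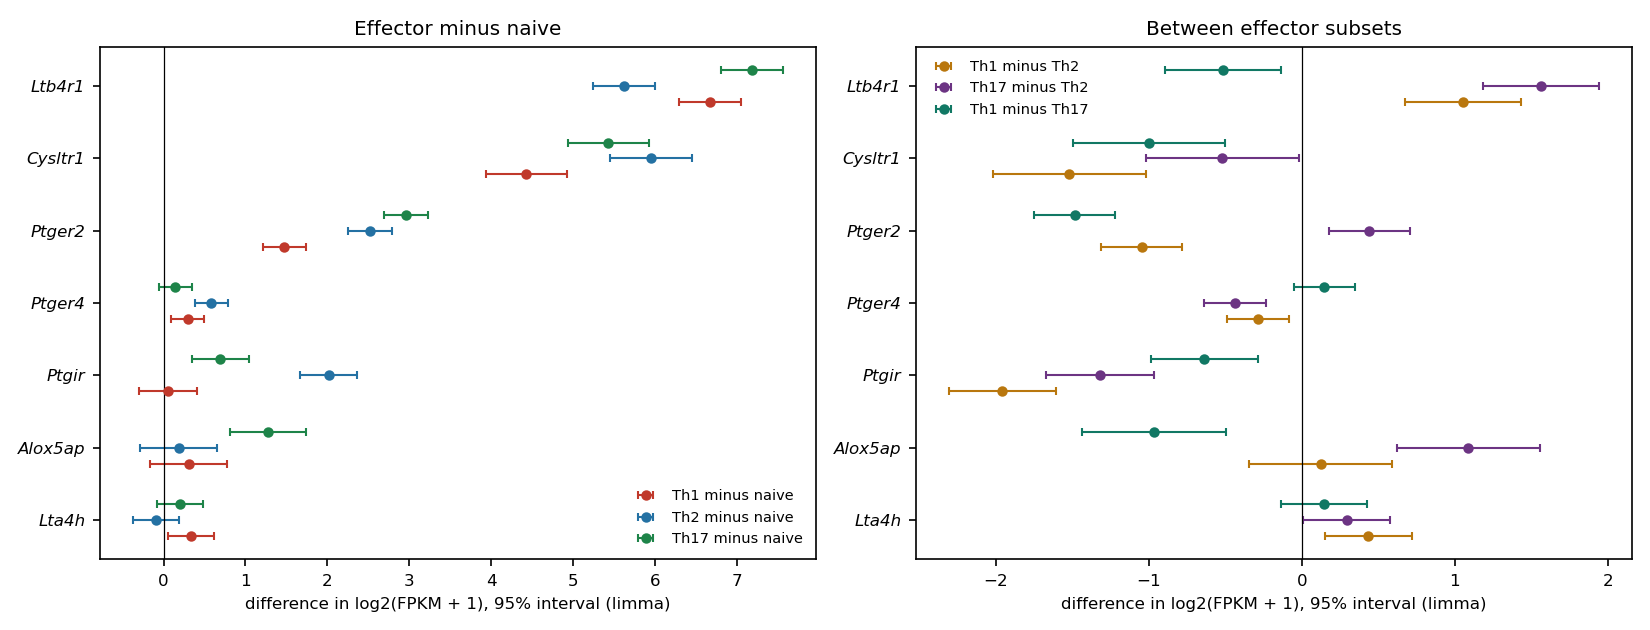
Differences in log2(FPKM + 1) with 95% intervals from limma (x axis) for the 7 tested genes, effector minus naïve on the left and between effector subsets on the right. The 3 genes *Ltb4r1*, *Cysltr1* and *Ptger2* lie above 1 in all comparisons with naïve, *Ptgir* stands out for Th2 at 2.02 and *Alox5ap* for Th17 at 1.28. *Alox5ap* passed the filter only through its Th17 level.

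Of the synthesis genes, *Alox5ap* (chr5:149265058-149288047), which encodes the 5-lipoxygenase activating protein FLAP, was highest in Th17. It stood at 0.941 and 0.270 FPKM in naïve cells, 1.05 and 0.841 in Th1 cells, 0.807 and 0.766 in Th2 cells and 2.87 and 2.74 in Th17 cells. Both Th17 libraries lay above all others, the Th1 and Th2 libraries did not overlap but lay close together, and the naïve libraries, with 14 and 4 implied fragments, overlapped with both. The rise in Th17 was 4.63-fold over naïve (1.28, SE 0.20, adjusted p = 0.00104) and 3.56-fold over Th2 (1.09, SE 0.20, adjusted p = 0.00526). *Alox5ap* passed the filter only through Th17, with a mean of 2.80 FPKM there. Its means were 0.606 in naïve, 0.947 in Th1 and 0.786 in Th2 cells, so these tests rest on the group that let it in. With no filter on low values the limma test called both differences (adjusted p = 0.00271 and 0.0106). With quantile normalization the rise over naïve was 0.44 and not called (adjusted p = 0.0575). The difference of Th1 from Th17 (-0.97, SE 0.20, adjusted p = 0.0127) was lost without Th1 replicate 2 (adjusted p = 0.0733) and without either Th17 library (adjusted p = 0.0636 and 0.0587). Th1 (0.31, adjusted p = 0.205) and Th2 (0.19, adjusted p = 0.428) were not called different from naïve. With quantile normalization both turned negative, Th1 at -0.40 (adjusted p = 0.0779) and Th2 at -0.49, which was called lower (adjusted p = 0.038). Without naïve replicate 1 both were called higher (0.61, adjusted p = 0.00676, and 0.49, adjusted p = 0.0145), and without naïve replicate 2 the Th2 difference was -0.12 (adjusted p = 0.411). In the annotation 189 exon bases of *Alox5ap* are shared with the antisense gene *Gm19719*. Markers of dendritic cells, which also use FLAP, summed to 2.25 and 2.34 FPKM in Th17 and to 0.126 to 1.21 elsewhere over 5 genes, with *Siglech* at 0 in all effector libraries. The Th17 sum rests on *Flt3* (1.40 and 1.34 FPKM) and *Zbtb46* (0.8001 and 0.832), whereas *Xcr1* was highest in Th1 (0.844 and 0.902, against 0.0511 and 0.117 in Th17). Markers of B cells (5 genes) summed to 12.1 and 11.1 FPKM in Th17 and to 2.32 to 9.72 elsewhere. The part of these cells was not tested.

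*Lta4h* (chr10:93453396-93484896), which encodes leukotriene A4 hydrolase, was the most even of the set. It stood at 38.0 and 41.4 FPKM in naïve cells, 47.8 and 53.2 in Th1 cells, 36.1 and 38.0 in Th2 cells and 41.6 and 49.96 in Th17 cells. Th1 lay above naïve and Th2 without overlap, while Th1 and Th17 overlapped. The rise in Th1 (0.34, SE 0.12, adjusted p = 0.0382, 1.27-fold) was lost without any 1 of the naïve, Th1 and Th2 libraries (adjusted p = 0.0555 to 0.177). The difference of Th1 from Th2 (0.44, SE 0.12, adjusted p = 0.0237) was lost without Th1 replicate 2 (adjusted p = 0.129) and without either Th2 library (adjusted p = 0.0915 and 0.0726). Th2 (-0.10, 95% interval -0.38 to 0.19) and Th17 (0.20, 95% interval -0.09 to 0.48) were not called different from naïve.

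*Ptgs2* (chr1:150100124-150108012), the inducible cyclooxygenase, was low but distinct in Th1 and Th17. It stood at 0 and 0.0111 FPKM in naïve cells, 1.29 and 0.903 in Th1 cells, 0.166 and 0.177 in Th2 cells and 1.74 and 1.40 in Th17 cells. No 2 groups overlapped, and the implied fragments were 104 to 221 per library in Th1 and Th17, 20 and 21 in Th2 and 1 over both naïve libraries. The ratio to naïve was 198 (35.2 to 7852) in Th1, 30.9 (5.24 to 1249) in Th2 and 287 (51.2 to 11363) in Th17. With no filter on low values, *Ptgs2* was called higher in Th1 (1.05, adjusted p = 0.000481) and in Th17 (1.35, adjusted p = 0.000156) than in naïve cells, and higher in both than in Th2 (0.83, adjusted p = 0.00259, and 1.13, adjusted p = 0.0011). In Th2 the difference from naïve was 0.22 (adjusted p = 0.128). The constitutive cyclooxygenase *Ptgs1* ran the other way, at 0.558 and 0.445 FPKM in naïve cells, 0.0367 and 0.0643 in Th1 cells, 0.381 and 0.300 in Th2 cells and 0.0932 and 0.0623 in Th17 cells. The FPKM ratio of *Ptgs2* to *Ptgs1* was 14.0 to 35.1 in the Th1 and Th17 libraries and 0.591 or less in the Th2 and naïve libraries.

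*Hpgds* (chr6:65117293-65144730), a PGD2 synthase, was the one gene of the set that was lower in all effector libraries. It stood at 0.691 and 0.794 FPKM in naïve cells, 0.158 and 0.122 in Th1 cells, 0.391 and 0.279 in Th2 cells and 0.170 and 0.134 in Th17 cells. Th2 lay between naïve and the overlapping Th1 and Th17 groups. Over 105 implied naïve fragments, the ratio to naïve was 0.189 (0.118 to 0.292) in Th1, 0.452 (0.325 to 0.623) in Th2 and 0.208 (0.131 to 0.321) in Th17. With no filter on low values, the fall was called in Th1 (-0.61, adjusted p = 0.000292), Th2 (-0.38, adjusted p = 0.00157) and Th17 (-0.60, adjusted p = 0.000276), and Th1 (-0.23, adjusted p = 0.023) and Th17 (-0.21, adjusted p = 0.0291) lay below Th2. *Csf1r*, 1 of the macrophage markers that were highest in naïve cells, stood at 3.84 and 3.20 FPKM there and at 0.159 to 0.989 in effector libraries. *Fcgr1*, another, stood at 0.329 and 0.405 FPKM in naïve cells and at 0.0143 or less in effector libraries, while *Lyz2* and *Adgre1* were highest in Th2 and *Cd14* in Th17. The part of such cells in the *Hpgds* level was not tested.

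Between effector groups the 7 tested genes split by subset, and each was called in at least 1 of the 3 comparisons, as were 59.9% of all tested genes. Th1 against Th2, 2 genes were higher (*Ltb4r1*, *Lta4h*) and 4 lower (*Cysltr1*, *Ptger2*, *Ptger4*, *Ptgir*) in Th1, where 27.4% and 16.9% of all tested genes were called higher and lower, 44.3% in all. Th17 against Th2, 3 were higher (*Ltb4r1*, *Ptger2*, *Alox5ap*) and 2 lower (*Ptger4*, *Ptgir*) in Th17, where 31.7% and 12% of all genes were, 43.6% in all. Th1 against Th17, 4 were lower (*Cysltr1*, *Ptger2*, *Ptgir*, *Alox5ap*) and none higher in Th1, where 16% and 9.17% of all genes were called lower and higher, 25.1% in all. Some of these calls were lost when single libraries were left out, as given above. They were *Lta4h* and *Ptger4* in Th1 against Th2, *Ptger2* in Th17 against Th2, and *Cysltr1*, *Ptgir* and *Alox5ap* in Th1 against Th17. *Alox5ap* was also tested only because of its Th17 level.

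The wider pathway was taken from a list of 58 other eicosanoid genes, of which 57 were in the tables and 22 passed the filter. Against naïve cells 11 of the 22 were higher and 8 lower in Th1. Th2 cells had 8 higher and 8 lower genes of the list, and Th17 cells 10 and 7. Here 33.5%, 38.7% and 29.8% of all tested genes were called lower. 7 of the 22 (*Abcc1*, *Acsl4*, *Cysltr2*, *Mgst2*, *Mgst3*, *Pla2g12a*, *Pla2g6*) were higher in all 3 effector groups and 5 lower in all 3, beside 24.8% and 23.8% of all tested genes.

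Of the other receptors, *Cysltr2* rose with *Cysltr1*. It stood at 0.340 and 0.740 FPKM in naïve cells, 39.2 and 42.5 in Th1 cells, 35.4 and 37.3 in Th2 cells and 53.3 and 49.0 in Th17 cells, which is 4.78, 4.61 and 5.09 above naïve on the log2 scale (adjusted p = 4.14e-07, 3.92e-07 and 3.0e-07). *Cysltr2* was called higher in Th17 than in Th2 (0.48, adjusted p = 0.0281), and Th1 was not called different from either. *Ptger3*, which encodes the PGE2 receptor EP3, was confined among these libraries to Th1 at levels above 1 FPKM, with 5.05 and 7.45 FPKM there and 0.0242 to 0.274 in the other libraries. Its difference was 2.79 from naïve, 2.65 from Th2 and 2.58 from Th17 (adjusted p = 1.2e-05, 5.12e-05 and 9.74e-05). *Ptger3* passed the filter only through Th1, so these tests rest on the group that let it in. *Tbxa2r*, the thromboxane receptor, fell from 51.9 and 51.0 FPKM in naïve cells to 15.0 and 19.0 in Th1 cells, 3.19 and 2.96 in Th2 cells and 10.02 and 11.04 in Th17 cells, with differences of -1.55, -3.69 and -2.19 (adjusted p = 3.85e-05, 5.83e-07 and 6.31e-06). *Tbxa2r* thus showed no overlap between any groups and was lowest in Th2. *Ptger1*, listed for the PGE2 receptor EP1, is counted in the list but not described further, since its reads may not all be its own. The PGD2 receptor *Ptgdr2* was at 0.363 FPKM or less in every library, with its highest values, 0.274 and 0.363, in Th1.

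Among genes that free or activate arachidonic acid, *Pla2g12a*, a secreted phospholipase, rose most. It stood at 4.57 and 2.74 FPKM in naïve cells, 63.1 and 54.4 in Th1 cells, 136 and 116 in Th2 cells and 87.6 and 79.7 in Th17 cells, with differences of 3.71, 4.80 and 4.21. *Acsl4*, an acyl-CoA synthetase with a preference for arachidonic acid, went from 8.99 and 8.15 FPKM to 50.6 and 43.0 in Th1 cells, 20.2 and 19.9 in Th2 cells and 63.5 and 56.7 in Th17 cells (2.32, 1.14 and 2.67). Both genes rose in all 3 groups, *Pla2g12a* with its peak in Th2 and *Acsl4* with its lowest effector level there. *Pla2g4a*, the cytosolic phospholipase A2, was at 2.79 and 3.54 FPKM in Th2 and at 0.183 to 0.533 in the other libraries (1.79 above naïve, adjusted p = 2.5e-05). *Pla2g4a* passed the filter only through Th2, so this test rests on the group that let it in. The calcium-independent phospholipase *Pla2g6* was 2.52-fold higher in Th2 than in naïve cells (1.13, adjusted p = 0.000153). It rose less in Th1 (0.72, adjusted p = 0.00169) and Th17 (0.80, adjusted p = 0.000964). *Pla2g4b* fell in all 3 groups (-1.29, -1.47 and -1.36), but 66.5% of its exon bases are shared with the gene *Gm28042*.

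In the leukotriene branch the terminal steps moved in both directions. *Alox5*, the lipoxygenase that FLAP serves, was listed at 0 in both naïve libraries and reached 0.449 and 0.521 FPKM in Th17, 0.112 and 0.215 in Th2 and 0.0372 and 0.0652 in Th1. *Ltc4s*, which makes leukotriene C4, was listed at 0 in the naïve and Th1 libraries and at 0.171 and 0.259 FPKM in Th2 and 0.810 and 0.431 in Th17. *Alox5*, *Ltc4s* and *Alox5ap* thus shared Th17 as their highest group, all at low levels and beside the dendritic and B cell marker sums given above. *Mgst2*, which can also make leukotriene C4, rose from 56.5 and 53.9 FPKM to 189 and 208 in Th1 and 231 and 171 in Th17 (1.83 each), with 104 and 114 in Th2 (0.97). *Mgst3* rose by 1.17, 1.13 and 2.00 in Th1, Th2 and Th17, and *Abcc1*, the exporter of leukotriene C4, by 1.49, 1.61 and 1.97. *Ggt5*, a gamma-glutamyltransferase that cleaves leukotriene C4, fell from 12.4 and 14.8 FPKM to 1.03 or less in every effector library (-2.96, -2.87 and -3.13). *Ggt1* fell in Th2 (-1.72) and less in Th17 (-0.91, adjusted p = 0.00666), and in Th1 it was not called (-0.54, adjusted p = 0.053). *Cyp4f18*, a hydroxylase, fell by 1.34, 1.92 and 1.46 on the log2 scale. *Ggt5* and *Cyp4f18* passed the filter only through the naïve cells, in which they were high.

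In the prostanoid branch, *Ptges*, the inducible PGE2 synthase, stood at 0.0253 and 0 FPKM in naïve cells, 0.623 and 0.656 in Th1 cells, 0.190 and 0.222 in Th2 cells and 1.41 and 1.42 in Th17 cells, the same order of groups as *Ptgs2*. *Hpgd*, which inactivates prostaglandins, was at 1.297 and 1.101 FPKM in naïve cells and at 0.175 or less in every effector library. *Ptges* and *Hpgd* did not pass the filter, so neither was tested. *Ptgr1*, a reductase of prostaglandins and leukotriene B4, rose from 0.850 and 0.901 FPKM to 7.92 and 8.96 in Th1 (2.33, adjusted p = 9.01e-06) and 8.03 and 8.44 in Th17 (2.30, adjusted p = 8.41e-06), and stood at 1.58 and 1.01 in Th2 (0.28, adjusted p = 0.103). *Cbr1*, a carbonyl reductase that can act on PGE2, fell in Th1 from 35.2 and 28.6 FPKM to 12.1 and 10.3 (-1.43, adjusted p = 6.29e-05). It fell less in Th17 (-0.71, adjusted p = 0.00198) and was not called in Th2 (0.02, adjusted p = 0.893). *Ptgs2*, *Ptges* and *Ptgr1* were all higher in every Th1 and Th17 library than in any Th2 or naïve library.

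**Figure D3:**
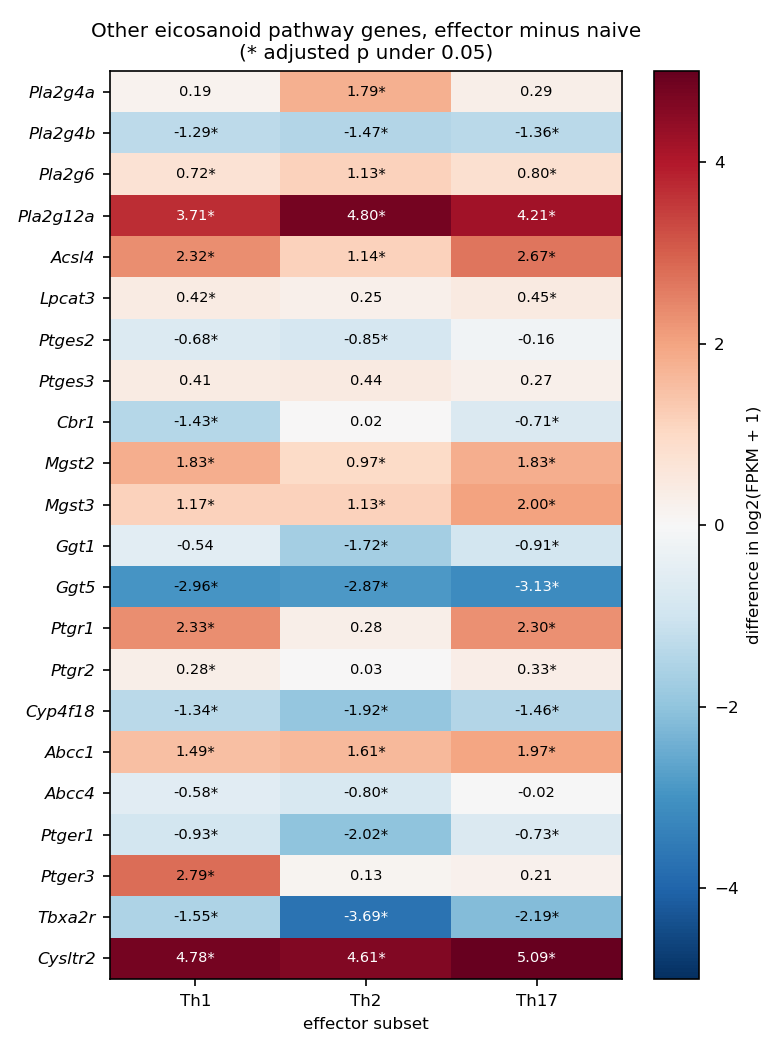
Difference in log2(FPKM + 1) of each effector group from naïve cells (colour and printed value) for the 22 tested genes of the wider pathway, with an asterisk where the limma adjusted p was under 0.05. *Cysltr2* and *Pla2g12a* show the largest rises, *Ggt5* and *Tbxa2r* the largest falls, and *Ptger3* stands out in Th1 alone at 2.79. *Ptger3* passed the filter only through Th1, *Pla2g4a* only through Th2, and *Ggt5*, *Cyp4f18* and *Ggt1* only through naïve cells.

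The tested genes most alike in pattern were found by Pearson's r over the 8 libraries on log2(FPKM + 1), given without a test because the libraries fall into naïve and effector blocks. For *Ltb4r1* these were *Vim* (0.9996), *Tmbim1* (0.999) and *Phf19* (0.998). *Cysltr1* was closest to *Sccpdh* (0.998), *Enox2* (0.998) and *Crem* (0.997), and *Ptger2* to *Itpripl2* (0.997) and *Il21* (0.996). *Ptger4* and *Ptgir*, both highest in Th2, were closest to *Il10ra* (0.987) and *Stbd1* (0.9902). *Alox5ap* was closest to *Ypel5* (0.976) and *Lta4h* to *Dazap1* (0.973). Within the set, *Cysltr1* and *Ptger2* (0.942), *Ltb4r1* and *Cysltr1* (0.927) and *Ltb4r1* and *Ptger2* (0.872) were the closest pairs, and *Ptgir* and *Lta4h* (-0.53) the most unlike.

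**Figure D4:**
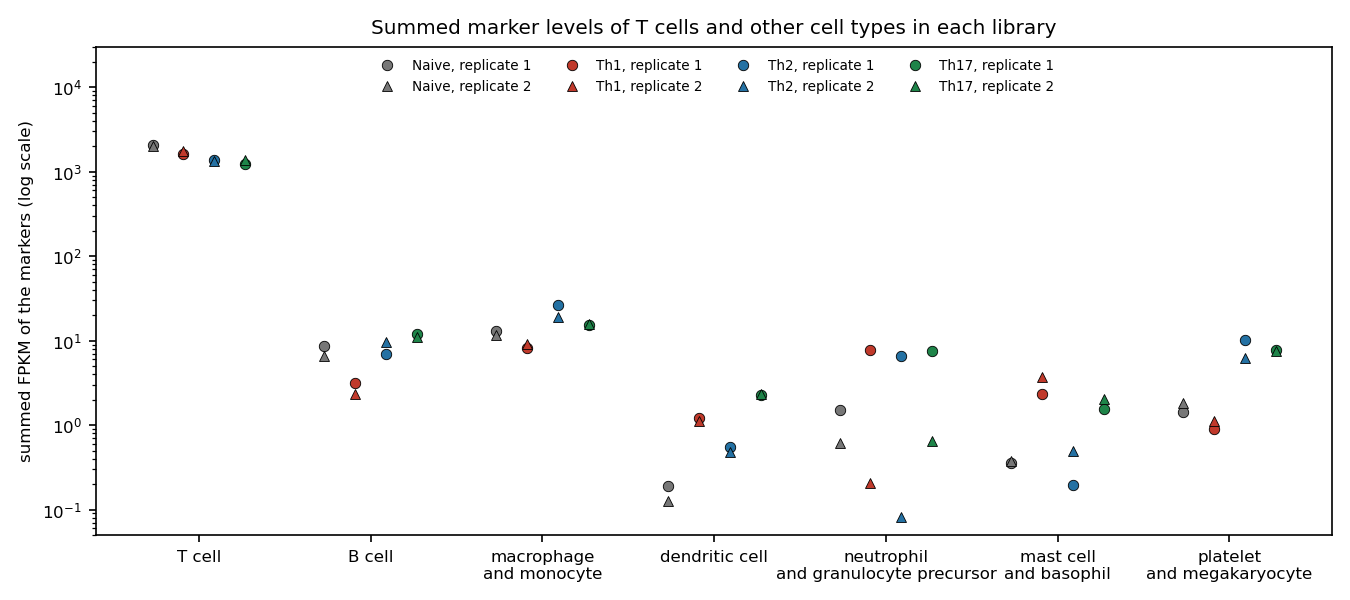
Summed FPKM (y axis, log scale) of marker genes of T cells and of other cell types in each library, with circles for replicate 1 and triangles for replicate 2. T cell markers sum to 1252 FPKM or more in all libraries, the macrophage sum is highest in Th2, the dendritic and B cell sums are highest in Th17, and the granulocyte sum separates replicate 1 from replicate 2 in the effector groups.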

How the data were processed

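RNA of naïve, effector Th1, Th2 and Th17 cells (2 libraries each) was sequenced by the authors as 50-base reads. Per the labels and the study's methods, reads were aligned to mm10 with Bowtie 0.12.8 and TopHat 1.3.2, and the authors deposited 1 table of FPKM values with confidence intervals per library, made with Cufflinks 2.0.2. No scaling between libraries is stated. The labels name a stranded library kit and the methods an unstranded one, so reads of genes that overlap on opposite strands may not be separable. FPKM depends on the depth and composition of each library and was used as deposited.

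Each table held 23746 rows, and rows of 1 symbol were summed to 23284 genes. Samples were grouped by their labels. Genes with a mean of at least 1 FPKM over the 8 libraries (11198) were tested on log2(FPKM + 1), with a pseudocount of 1, by limma 3.58.1 in R 4.3.3, with 4 group means, a mean-variance trend and two-sided moderated tests of 6 comparisons. Adjustment followed Benjamini-Hochberg, with a threshold of 0.05. The code was tested on simulated data. Fragment numbers were worked out from the width of the deposited confidence intervals. Ratios to naïve used these numbers with exact 95% intervals, and a floor of 3 fragments stood for a count of 0. Exon overlaps came from GENCODE M21 and promoter windows from RefSeq GRCm38.p6.

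The 10 genes, the pathway list and the marker lists were chosen with earlier results of these data known. All 10 genes are named. Pathway genes are named if they passed the threshold with a difference of at least 1 in any comparison, with *Ptgs1*, *Alox5*, *Ltc4s*, *Ptgdr2*, *Hpgd* and *Ptges* besides. Up to 3 genes most alike in pattern are named for each tested gene, and marker genes where they move with a result. Some results that these rules would name are not reported here. Alternatives were median scaling, quantile normalization, a pseudocount of 0.1, no filter, a minimum of 5 FPKM, a fit of the 2 groups compared, no trend, a replicate block, the largest row of each symbol, and leaving out each library. With 1 library left in a group, it was assumed to vary like the other groups.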

Additional observations from a re-analysis of the deposited data

Results flagged for a closer look

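For each of the 7 tested genes the response to differentiation, measured against the same naïve libraries, differed between effector groups by the limma test of the difference itself, in at least 1 of 3 comparisons, as did that of 59.9% of all tested genes. The most significant of these differences per gene are given. For *Ltb4r1* it was Th17 minus Th2 (1.57, adjusted p = 0.000529), for *Cysltr1* Th1 minus Th2 (-1.52, adjusted p = 0.00145) and for *Ptger2* Th1 minus Th17 (-1.49, adjusted p = 0.00016). For *Ptger4* it was Th17 minus Th2 (-0.44, adjusted p = 0.00701), for *Ptgir* Th1 minus Th2 (-1.96, adjusted p = 9.3e-05), for *Alox5ap* Th17 minus Th2 (1.09, adjusted p = 0.00526) and for *Lta4h* Th1 minus Th2 (0.44, adjusted p = 0.0237). *Alox5ap* was among the tested genes only because of its Th17 level. The call for *Lta4h* was lost without Th1 replicate 2 and without either Th2 library. The compared groups did not overlap in any of the 7. These comparisons were picked as the largest called ones of each gene, so this lack of overlap adds no support of its own. Groups of 2 libraries are too small to look for single outlying libraries.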

How the results depend on the processing

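Of the results for single genes of the set, 345 of those under other settings kept direction and call, 11 lost and 6 gained the call and 4 reversed; with a library left out the numbers were 301, 29, 5 and 1. For single pathway genes, only the 52 results called in the main fit with a difference of at least 1 in size were recomputed. They kept direction and call in all 863 recomputations. Results picked for a large called difference are less likely to change, so these numbers are not comparable with those of the set. The rises of *Ltb4r1*, *Cysltr1* and *Ptger2* over naïve kept direction and call throughout. Reversed were *Ptgir* Th1 (-0.31), *Alox5ap* Th1 (-0.40) and *Alox5ap* Th2 (-0.49, adjusted p = 0.038) against naïve with quantile normalization, *Lta4h* Th2 against naïve with median scaling (0.039) and *Alox5ap* Th2 against naïve without naïve replicate 2 (-0.12, and 0.49 without replicate 1, the range over libraries left out). None of these was called before.

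Of the 10 genes, 8 were called in Th1 and 8 in Th17 against naïve and 8 in Th17 against Th2 with no filter, since the low genes then entered. With a minimum of 5 FPKM, 3 were called in Th17 against naïve, 3 in Th17 against Th2 and 2 in Th1 against Th17, since fewer were tested. Quantile normalization left 3 in Th17 against naïve, and the cause was not tested. Of all tested genes, it called 3408 higher and 4305 lower there, beside 4197 and 3337 in the main fit. For the other settings in this paragraph the share of all genes called was not worked out. The counts are therefore not results about these genes. Leaving out 1 library gave 3 to 5 for Th1 against naïve (3 without either Th1 library) and 1 to 5 for Th1 against Th17 (1 without Th1 replicate 2, 2 without either Th17 library). In the pathway a minimum of 5 FPKM gave 12 calls in Th1 and 9 in Th2 against naïve, 7 in Th1 against Th2 and 9 in Th17 against Th2. No filter gave 30 in Th17 against naïve, 25 in Th17 against Th2 and 14 in Th1 against Th17. Leaving out 1 library gave 9 to 15 in Th17 against Th2 (9 without Th2 replicate 2).

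The median of all tested genes was -0.11 for Th2 against naïve and 0.18 for Th17 against Th2, and 0.00 and 0.02 with median scaling, so differences involving Th2 carry this shift. With quantile normalization it was -0.13, -0.13 and -0.12 for Th1, Th2 and Th17 against naïve. Of all calls, 72.6% were higher in Th17 against Th2, 53.1% with median scaling and 50.7% with quantile normalization. The share was 36.5%, 48.2% and 49.7% for Th1 against Th17, 61.8% and 50.9% (quantile) for Th1 against Th2, and 55.7% and 44.2% (quantile) for Th17 against naïve.

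The fit of the 2 groups compared did not call *Ptger4* in Th1 against naïve (adjusted p = 0.0583) or Th2 (adjusted p = 0.0732), nor *Cysltr1* in Th1 against Th17 (adjusted p = 0.0617), and it called *Ltb4r1* there (adjusted p = 0.0188). Libraries of the same replicate number deviated together (r = 0.138 to 0.294 across 11198 genes), but 2 numbers do not show that they pair the samples. With the replicate block, *Ltb4r1* in Th1 against Th17 (-0.51, adjusted p = 0.0478), *Cysltr1* in Th17 against Th2 (-0.52, adjusted p = 0.025) and *Lta4h* in Th17 against Th2 (0.29, adjusted p = 0.0202) were called, and 7 genes rather than 5 in Th17 against Th2. The share of all genes called with this block was not worked out. Depth limits *Ltb4r2*, *Hpgds*, *Ptgs2* and *Alox5ap* most, and naïve levels of *Ltb4r1* and *Cysltr1* rest on 6 and 1 fragments.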

Other observations

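Of the marker lists not given above, 6 mast cell and basophil genes summed to 0.197 to 3.76 FPKM over the 8 libraries, with *Fcer1a* at 0 in every library. The 4 platelet and megakaryocyte genes summed to 6.30 to 10.1 FPKM in Th2 and Th17 and to 0.904 to 1.81 in naïve and Th1. The FPKM ratio of *Ltb4r1* to *Lta4h*, the receptor of leukotriene B4 to the enzyme that makes it, was 0.00193 and 0.00357 in naïve cells, 2.38 and 2.10 in Th1 cells, 1.78 and 1.19 in Th2 cells and 3.79 and 3.30 in Th17.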
